A study of Mus musculus with 17 samples.

Results

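The genes described here are those of the vacuolar proton pump and of the intercalated cells, the acid-base cells of the kidney tubule that carry this pump in their outer membrane. They were chosen by symbol: every gene whose name starts with Atp6v0 or Atp6v1, Atp6ap1, and 12 genes known from intercalated cells, with pseudogenes left out. This gave 36 of the 53379 genes in the count table. Of these, 23 code for pump subunits, namely 5 isoforms enriched in kidney, 15 widely expressed subunits and 3 isoforms known from testis or brain. Of the 12 intercalated cell genes, 7 code for transporters or carbonic anhydrase and 5 for transcription factors or surface proteins. The remaining gene, Atp6v1fnb, is a neighbour of Atp6v1f and no known subunit. In all, 34 of the 36 passed the filter on low counts. Atp6v1e2 and Atp6v1fnb did not, with at most 1 and 6 reads in a library.

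RNA was sequenced from kidney cortex enriched for glomeruli and not from isolated tubules. All mice were of the BTBR strain. Of the ob/ob mice, which carry the Lepob mutation of the leptin gene and become obese and diabetic, 5 were given saline and 7 the endothelin A receptor antagonist atrasentan, at 5 mg/kg/day in the drinking water for 6 weeks, from an age of 18 to 24 weeks. The 5 wild type mice were untreated and were killed at the same age. The libraries are called saline, atrasentan and wild type here and are numbered within a group in the order of deposition. The genotype field reads 'WT-d30' for wild type, 'ob/ob-d30' for saline and 'BTBR ob' for atrasentan, and no source says what d30 stands for. Every library has the same batch label, and the library numbers in the labels follow the groups, so the order of preparation and the group cannot be told apart.

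The vacuolar proton pump has a membrane sector, V0, through which protons pass, and a cytoplasmic sector, V1, which splits ATP. Almost every cell uses it to acidify lysosomes and endosomes. Intercalated cells of the connecting tubule and collecting duct also place it at the plasma membrane, with isoforms of several subunits that few other tissues make. Type A intercalated cells secrete acid into the urine and return bicarbonate to the blood through Slc4a1, while type B cells secrete bicarbonate through Slc26a4. The transcription factor Foxi1 drives the identity of both and is known to act on several pump genes.

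The promoters of 3 kidney-enriched isoforms and of 1 widely expressed subunit are shown because Foxi1 is a forkhead factor, and because widely expressed pump genes are known targets of the lysosomal regulator TFEB, which binds E-boxes. Each run holds the 250 bases before the RefSeq transcription start, 5′ to 3′ on the gene's own strand, in build GRCm38.p6. Capitals mark TGTTTA, the core of the forkhead motif, and CACGTG, an E-box. They lie at chr6:83742767-83743016 (plus strand) for Atp6v1b1, chr6:38124587-38124836 (minus strand) for Atp6v0a4, chr1:138273488-138273737 (plus strand) for Atp6v1g3 and chr4:117887330-117887579 (minus strand) for Atp6v0b.
Atp6v1b1: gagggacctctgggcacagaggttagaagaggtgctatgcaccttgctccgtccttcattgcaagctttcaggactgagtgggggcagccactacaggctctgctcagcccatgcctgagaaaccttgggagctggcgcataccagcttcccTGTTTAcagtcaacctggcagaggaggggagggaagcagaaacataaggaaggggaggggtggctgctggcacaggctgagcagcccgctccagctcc
Atp6v0a4: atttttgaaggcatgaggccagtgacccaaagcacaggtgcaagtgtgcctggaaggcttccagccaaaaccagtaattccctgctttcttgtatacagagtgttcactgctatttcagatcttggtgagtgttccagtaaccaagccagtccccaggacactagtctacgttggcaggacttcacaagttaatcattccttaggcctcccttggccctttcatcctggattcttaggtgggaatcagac
Atp6v1g3: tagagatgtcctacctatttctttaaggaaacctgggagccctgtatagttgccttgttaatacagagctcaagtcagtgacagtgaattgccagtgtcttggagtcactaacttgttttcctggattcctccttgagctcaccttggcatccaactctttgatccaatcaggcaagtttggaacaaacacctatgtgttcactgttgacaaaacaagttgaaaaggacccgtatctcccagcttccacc
Atp6v0b: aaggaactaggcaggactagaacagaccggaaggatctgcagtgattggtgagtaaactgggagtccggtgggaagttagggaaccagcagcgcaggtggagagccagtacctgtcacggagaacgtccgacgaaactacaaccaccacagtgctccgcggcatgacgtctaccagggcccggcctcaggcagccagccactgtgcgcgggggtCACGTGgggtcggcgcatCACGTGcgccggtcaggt
Each motif was searched on both strands of windows from 250 bases before to 50 bases after the start, and no match overlaps another in the runs printed. RefSeq windows were at hand for 25 of the 36 genes. TGTTTA was in 13.4% of all 32851 windows. Among the pump and intercalated cell genes it was found in Atp6v1b1 alone, which is 1 of the 4 kidney-enriched isoforms with a window, where its first base lies 98 bases before the start. It was in 0 of 10 widely expressed subunits and 0 of 7 intercalated cell genes with a window. CACGTG was in 7.15% of all windows. It was in 0 of the 4 kidney-enriched isoforms, in 4 of the 10 widely expressed subunits (Atp6v0b, Atp6v0d1, Atp6v0e and Atp6v1a) and in 1 of the 7 intercalated cell genes (Aqp6). In Atp6v0b it is present at both 36 and 18 bases before the start.

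The 17 libraries held 29161833 to 52528747 reads on genes. The atrasentan libraries stood apart in having fewer genes with a read (21396 to 23081, against 23901 to 25313 in the other libraries) and a smaller share of reads outside genes (3.17% to 5.65%, against 5.95% to 8.58%). Markers of podocytes, proximal tubule and later tubule segments also differed between groups and libraries, and their levels are given beside the results. In such bulk tissue, fewer cells of a type and less RNA per cell cannot be told apart. Levels are CPM, the reads of a gene scaled to the size of its library, and CPM per kilobase of exon where genes are compared with each other.

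Compared with wild type, 6 of the 34 tested genes rose in the ob/ob mice on saline and 0 fell, where 5.12% of all 17766 genes tested were called (3.21% as higher and 1.91% as lower, edgeR, adjusted p under 0.05). The 6 were the V1 subunits Atp6v1a and Atp6v1b2, the kidney-enriched V0 subunit Atp6v0d2, the chloride-bicarbonate exchanger Slc4a1, the carbonic anhydrase Car2 and the surface protein Hepacam2. The estimate was above 0 for 31 of the 34, with a median log2 fold change of 0.89, against 0.0056 over all genes. An unadjusted p under 0.05 was reached by 21. Between the ob/ob groups 11 of the 34 fell with atrasentan and 1, Atp6ap1, rose, where 33.8% of all genes were called, 18.5% as lower and 15.3% as higher. The estimate was below 0 for 27 of the 34, with a median of -1.07 against -0.0051 over all genes. Atrasentan was also compared with wild type: 3 rose (Atp6ap1, Atp6v0a2 and Kit) and 1 fell (Atp6v0c), where 29.2% of all genes were called, 14.7% as higher and 14.5% as lower, and the median was 0.16 against -0.0088. Each pair of comparisons shares a group of libraries. The 3 sets of estimates therefore do not stand alone, and a high saline group raises the first and lowers the second together. Groups without overlap were few. Every saline library was above every wild type library for 8 of the 34 (3.46% of all genes) and below for 1, Atp6v1g2 (3.96%). Every atrasentan library was below every saline library for 1 of the 34, Atp6v0c (5.76%), and above for 0 (6.07%). Against wild type the counts were 1, again Atp6v0c, below (7.06%) and 0 above (6.16%).

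**Figure D1:**
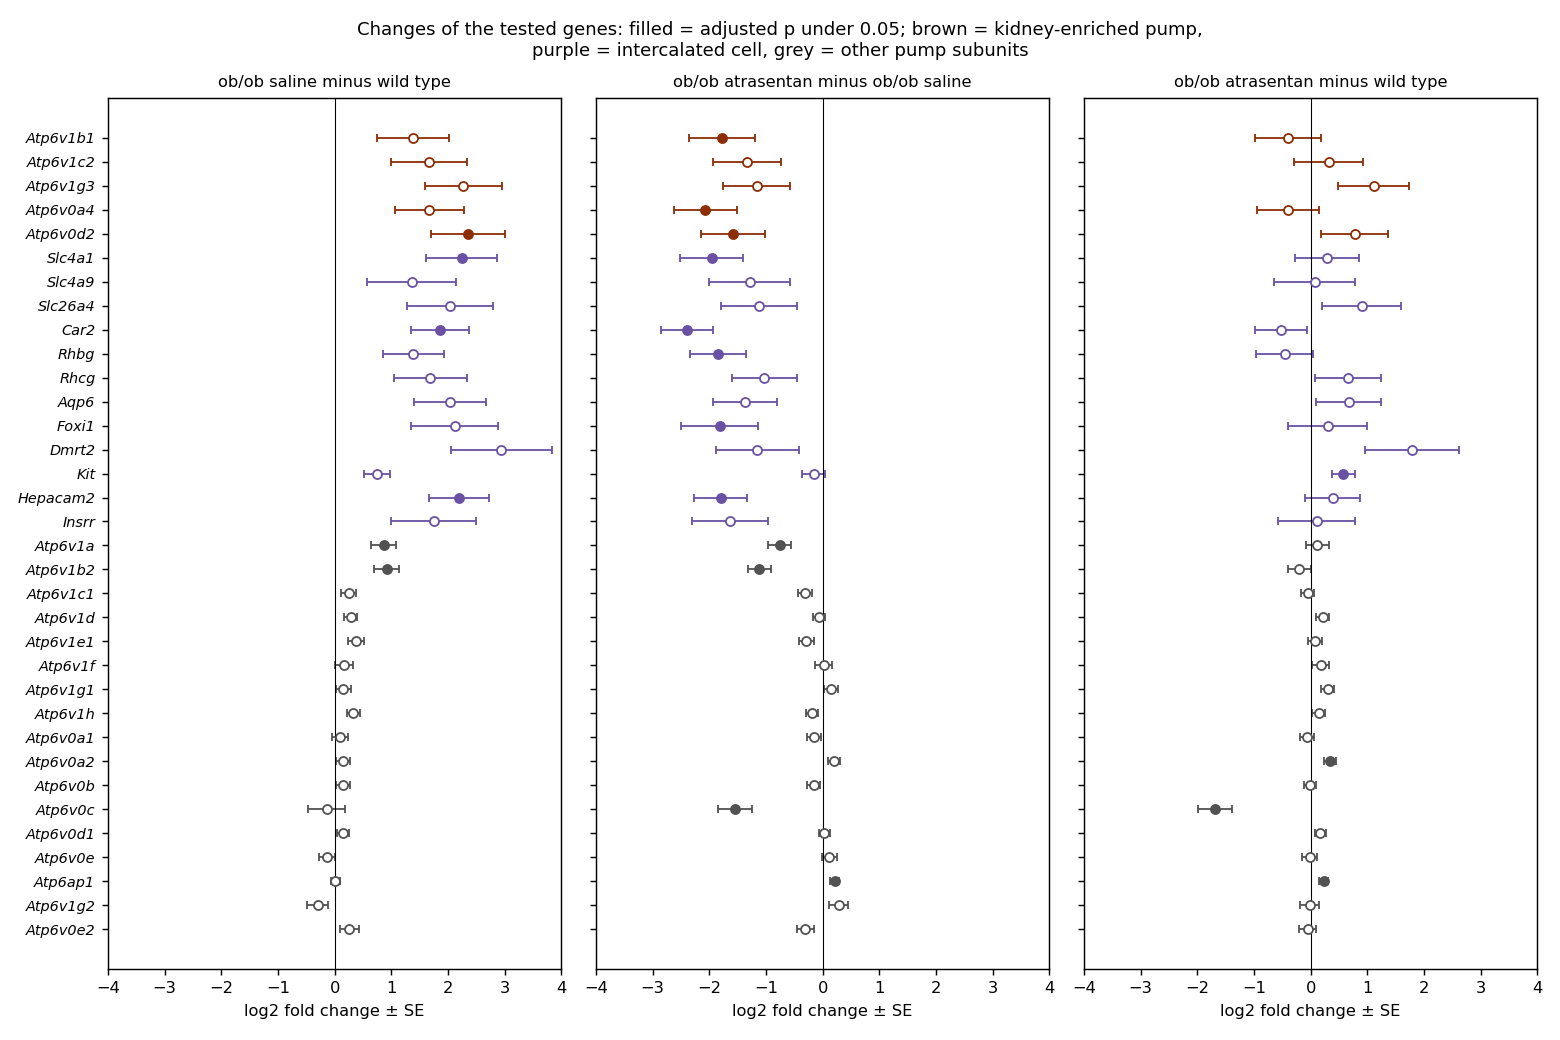
Log2 fold changes of the 34 tested genes are drawn as points with their standard errors, in 1 panel per comparison. Filled points passed an adjusted p of 0.05 (edgeR). The kidney-enriched pump isoforms and intercalated cell genes lie to the right of 0 in saline against wild type and to the left of 0 in atrasentan against saline, while most other pump subunits lie near 0.

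Per length of exon, the kidney-enriched isoforms were among the lowest subunits in this preparation. In wild type Atp6ap1, the accessory subunit Ac45, was highest at 137 ± 15.3 CPM per kilobase (SD, n = 5), followed by the proteolipid subunit Atp6v0b at 99.0 ± 14.1. The 5 kidney-enriched isoforms had means between 1.26 (Atp6v0d2) and 1.82 (Atp6v1b1), ranks 17 to 21 of 23, and their neighbours in this order differed by less than their SDs. Among the widely expressed subunits Atp6v0c alone lay below them, at 0.98 ± 0.408. Its rank is uncertain, since it has near-identical pseudogenes and reads that align to several places were not assigned to genes. With saline the kidney-enriched isoforms had means between 4.29 (Atp6v1c2) and 7.90 (Atp6v1g3), and with atrasentan between 1.03 (Atp6v0a4) and 3.52 (Atp6v1g3). Atp6v1g2, an isoform known from brain, was above all 5 in wild type at 2.95 CPM per kilobase, below all 5 with saline at 2.40, and second to Atp6v1g3 with atrasentan at 2.91. Each of the other subunits, Atp6v0c and Atp6v1e2 apart, had a mean of at least 11.2 CPM per kilobase in every group.

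The catalytic-sector isoform Atp6v1b1 (B1), whose loss in people causes renal tubular acidosis with deafness, lies at chr6:83742990-83758855. It stood at 5.34, 7.51, 12.1, 6.87 and 8.05 CPM in wild type libraries 1 to 5 and at 31.5, 7.01, 32.7, 8.86 and 23.8 CPM in saline libraries 1 to 5. Atrasentan libraries ran from 0.999 to 18.2 CPM with a median of 4.87. Saline libraries 1, 3 and 5 were high and libraries 2 and 4 lay among the wild type values, so the groups overlapped. The log2 fold change was 1.38 ± 0.64 (SE) in saline against wild type (edgeR adjusted p = 0.218). Atp6v1b1 fell by 1.78 ± 0.58 on the log2 scale in atrasentan against saline (adjusted p = 0.0259), and against wild type the value was -0.40 ± 0.58 (adjusted p = 0.65). Without saline library 1 or 3 the fall had an adjusted p of 0.0617 or 0.0739, and without atrasentan libraries 2 and 5 together one of 0.0683.

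Atp6v0a4 (a4), the V0 isoform whose loss also causes renal tubular acidosis, lies at chr6:38048483-38124586. It stood at 3.77, 6.81, 7.71, 8.97 and 6.66 CPM in wild type and at 31.3, 10.1, 35.3, 8.81 and 22.4 CPM with saline. The range with atrasentan was 0.902 to 13 CPM with a median of 4.71. Saline library 4 lay within the wild type range and the other 4 above it. The log2 fold change was 1.67 ± 0.61 in saline against wild type (adjusted p = 0.113), and Atp6v0a4 fell by 2.07 ± 0.55 with atrasentan against saline (adjusted p = 0.00862). Against wild type it was -0.40 ± 0.55 (adjusted p = 0.624). Its exons overlap those of Tmem213 on the opposite strand and of D630045J12Rik on the same strand, and these libraries do not mark strand. The fall had an adjusted p of 0.118 without saline libraries 1 and 3.

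Atp6v0d2 (d2), the kidney and osteoclast form of the d subunit that joins both sectors, lies at chr4:19876841-19922605. It stood at 4.63, 2.17, 4.33, 4.35 and 1.59 CPM in wild type and at 32.3, 8.02, 23.4, 6.69 and 16.9 CPM with saline. The atrasentan libraries ran from 1.05 to 14.3 CPM with a median of 4.73. Every saline library was above every wild type library, and the atrasentan libraries overlapped both groups. Atp6v0d2 rose by 2.35 ± 0.65 in saline against wild type (adjusted p = 0.046) and fell by 1.58 ± 0.57 with atrasentan against saline (adjusted p = 0.0406). Between atrasentan and wild type the value was 0.78 ± 0.59 (adjusted p = 0.347). Macrophages can also make this isoform: of 12 macrophage markers 0 were called in saline against wild type (summed level 300 to 522 CPM with saline, 307 to 771 in wild type), while 9 rose and 0 fell with atrasentan against saline (501 to 1756 CPM). Their part in the Atp6v0d2 values was not tested. Both calls were lost without saline library 1, 3 or 5 (adjusted p of 0.136, 0.114 and 0.0672 for the rise and 0.128, 0.0924 and 0.0629 for the fall). The rise was also lost without any 1 wild type library (0.0688 to 0.118) or atrasentan library 2 or 3 (0.0527 and 0.0533), and the fall without atrasentan library 1, 2, 3, 4 or 7 (0.0504 to 0.0717). With limma-voom and the deposited log2 table the rise had an adjusted p of 0.0769 and 0.0518.

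Neither of the remaining kidney-enriched isoforms passed in any comparison in the edgeR fit of all libraries. Atp6v1g3 (G3, chr1:138273738-138289462), a V1 stalk subunit, stood at 2.79, 2.74, 3.35, 4.44 and 2.12 CPM in wild type and at 24.3, 6.04, 21.5, 6.35 and 16.3 CPM with saline, with no overlap between the groups. With atrasentan it ran from 0.897 to 22.6 CPM with a median of 6.17, and library 5 held the highest value. The log2 fold changes were 2.27 ± 0.68 in saline against wild type (adjusted p = 0.06), -1.16 ± 0.59 in atrasentan against saline (adjusted p = 0.138) and 1.11 ± 0.63 in atrasentan against wild type (adjusted p = 0.196). Atp6v1c2 (C2, chr12:17284721-17329359), a form of the V1 subunit that holds the stalk to the membrane sector, stood at 2.92, 1.90, 4.20, 3.44 and 2.33 CPM in wild type and at 18.8, 3.91, 12.8, 3.80 and 7.28 CPM with saline. Atrasentan libraries ran from 0.333 to 8.42 CPM with a median of 4.53. Saline libraries 2 and 4 lay inside the wild type range for this isoform. Its log2 fold changes were 1.66 ± 0.67, -1.34 ± 0.60 and 0.32 ± 0.61 in the same 3 comparisons (adjusted p = 0.152, 0.0906 and 0.732). Without atrasentan library 5 both isoforms passed as lower with atrasentan than with saline, Atp6v1g3 at -1.90 (adjusted p = 0.00836) and Atp6v1c2 at -1.69 (adjusted p = 0.0392). In saline against wild type Atp6v1g3 passed without saline library 2 or 4 or atrasentan library 1 or 5 (adjusted p of 0.0261 to 0.0452). With all libraries kept, Atp6v1g3 also passed there with DESeq2 (adjusted p = 0.0137). In atrasentan against saline Atp6v1g3 passed as lower with limma-voom and the deposited log2 table (adjusted p = 0.041 and 0.0463). Atp6v1c2 did so with DESeq2, limma-voom and the deposited log2 table (adjusted p = 0.0466, 0.0424 and 0.0497).

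**Figure D2:**
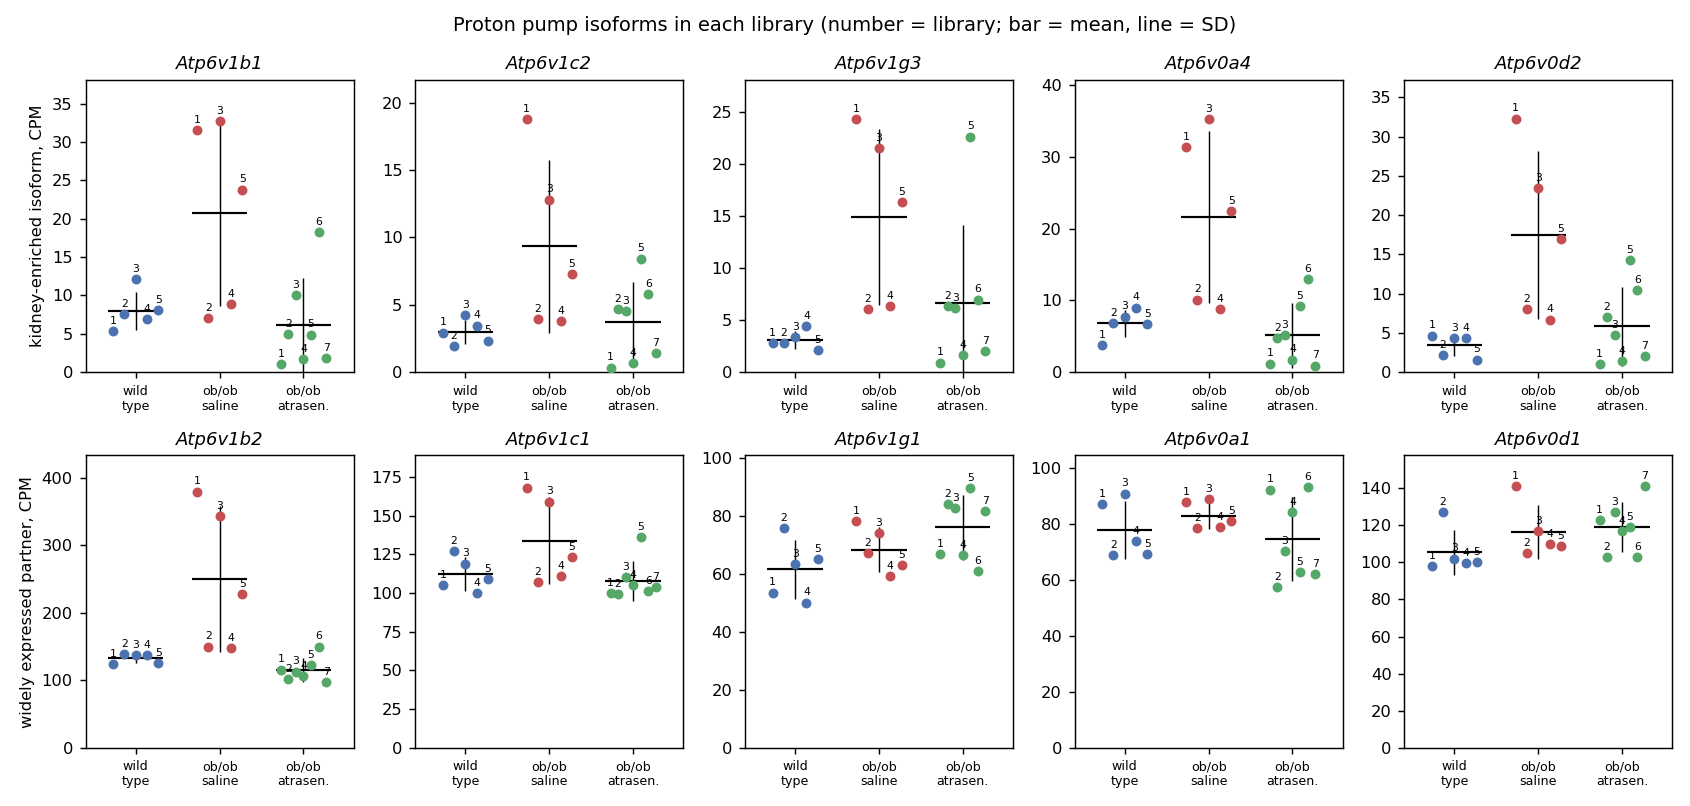
Level in CPM of the 5 kidney-enriched pump isoforms (upper panels) and of their widely expressed partners (lower panels) in each library, with the group mean as a bar and the SD as a line. In the upper panels saline libraries 1, 3 and 5 stand above saline libraries 2 and 4, while the lower panels show a like split for Atp6v1b2 and Atp6v1c1.

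The widely expressed partner of each kidney isoform served as the comparison within the pump. Atp6v1b2 (B2), the form of the B subunit made in most cells, stood at 124, 139, 137, 137 and 126 CPM in wild type and at 380, 150, 344, 148 and 228 CPM with saline. The atrasentan libraries ran from 97.0 to 150 CPM with a median of 113. Every saline library was above every wild type library. Atp6v1b2 rose by 0.92 ± 0.22 in saline against wild type (adjusted p = 0.0261) and fell by 1.12 ± 0.20 with atrasentan against saline (adjusted p = 0.000646), with -0.20 ± 0.20 between atrasentan and wild type (adjusted p = 0.471). The rise was lost without wild type library 1, 2, 3 or 5 or saline library 1 or 3 (adjusted p of 0.0546 to 0.0857). The partners Atp6v1c1, Atp6v1g1, Atp6v0a1 and Atp6v0d1 passed in no comparison. For saline against wild type their log2 fold changes were 0.25 ± 0.13, 0.15 ± 0.13, 0.09 ± 0.14 and 0.15 ± 0.11 (adjusted p = 0.264, 0.559, 0.764 and 0.479). For atrasentan against saline they were -0.31 ± 0.12, 0.15 ± 0.12, -0.15 ± 0.12 and 0.03 ± 0.10 (adjusted p = 0.0521, 0.332, 0.357 and 0.843). Against wild type the values with atrasentan lay between -0.06 and 0.30.

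The levels of these 4 partners overlapped between the groups. Atp6v1c1 (C1) was at 105, 127, 119, 100 and 109 CPM in wild type, at 168, 107, 159, 111 and 123 CPM with saline, and from 99.0 to 136 CPM (median 104) with atrasentan. Atp6v1g1 (G1) was at 53.6, 75.9, 63.3, 50.1 and 65.1 CPM in wild type, at 78.2, 67.2, 74.1, 59.3 and 63.1 CPM with saline, and from 60.9 to 89.8 CPM (median 81.7) with atrasentan. Saline libraries 1 and 3 were the highest of their group for both genes. Atp6v1c1 passed as lower with atrasentan than with saline without saline library 2 or 4 or atrasentan library 5 (-0.38, -0.37 and -0.37, adjusted p = 0.0219, 0.0323 and 0.0169) and with RLE or upper-quartile scaling or DESeq2 (adjusted p = 0.0366, 0.0452 and 0.0281). Atp6v1g1 passed as higher with atrasentan than in wild type without wild type library 2 or atrasentan library 6 (0.39 and 0.35, adjusted p = 0.0241 and 0.0321). Atp6v0a1 (a1), the form of the a subunit best known from nerve cells, was at 87.0, 68.8, 90.8, 73.8 and 69.1 CPM in wild type, at 87.7, 78.5, 89.0, 78.9 and 80.9 CPM with saline, and from 57.5 to 93.2 CPM (median 70.2) with atrasentan. Atp6v0d1 (d1) was at 98.1, 127, 102, 99.8 and 100 CPM in wild type, at 141, 105, 117, 110 and 109 CPM with saline, and from 103 to 141 CPM (median 119) with atrasentan.

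The log2 ratio of each kidney isoform to its partner within a library was compared between groups in 15 exact two-sided permutation tests over mice. With p-values adjusted over the 15, 0 passed, and 7 had an unadjusted exact p under 0.05. In saline against wild type the d2 to d1 ratio was higher by 2.07 (-2.97 ± 0.85 against -5.04 ± 0.77, SD, n = 5 and 5) and the G3 to G1 ratio by 1.90 (-2.42 ± 0.85 against -4.32 ± 0.56), each with an exact p of 0.00794 and an adjusted p of 0.0595. The a4 to a1 ratio differed by 1.40 (exact p = 0.0159, adjusted 0.0714) and the C2 to C1 ratio by 1.17 (exact p = 0.0238, adjusted 0.0714). The B1 to B2 ratio, in which both members were high with saline, differed by 0.35 (exact p = 0.23, adjusted 0.322). In atrasentan against saline the largest difference of the 5 was that of a4 to a1, at -2.24 (-4.40 ± 1.5, n = 7, against -2.15 ± 0.84, n = 5, exact p = 0.0202, adjusted 0.0714). In atrasentan against wild type the 5 differences ran from -0.84 to 0.15, and the lowest exact p was 0.256. As a share of the pair per length of exon, a4 took 5.40% to 13.8% in wild type, 12.8% to 34.3% with saline and 1.65% to 16.2% with atrasentan. For B1 the shares were 4.96% to 9.66%, 5.36% to 11.2% and 1.03% to 12.8%. The smallest exact p is 0.00794 with 5 against 5 mice and 0.00126 with 7 against 5. In saline against wild type the d2 to d1 and G3 to G1 ratios were at that smallest value, adjusted to 0.0595. No larger difference could have given them a lower exact p, so the lack of a call there does not show that the ratios were alike. The number of ratios that passed was 4 without saline library 4 and 5 without atrasentan library 5.

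Among the 15 widely expressed subunits 2 rose and 0 fell in saline against wild type (median log2 fold change 0.15, with 5.12% of all genes called), and 1 rose and 3 fell in atrasentan against saline (median -0.15, with 33.8% of all genes called). The catalytic A subunit Atp6v1a, which binds and splits ATP, stood at 126, 139, 155, 152 and 134 CPM in wild type and at 400, 166, 349, 164 and 215 CPM with saline. With atrasentan it ran from 121 to 211 CPM with a median of 147. All saline libraries were above all wild type libraries, by a small margin in libraries 2 and 4. Atp6v1a rose by 0.87 ± 0.22 in saline against wild type (adjusted p = 0.0315) and fell by 0.76 ± 0.20 with atrasentan against saline (adjusted p = 0.00764), with 0.12 ± 0.20 between atrasentan and wild type (adjusted p = 0.702). The rise was lost without any 1 wild type library or saline library 1 or 3 (adjusted p of 0.0506 to 0.101), and the fall had an adjusted p of 0.203 without saline libraries 1 and 3 together. With limma-voom the rise had an adjusted p of 0.0516. The accessory subunit Atp6ap1 stood at 397, 490, 423, 385 and 374 CPM in wild type and at 451, 395, 412, 416 and 416 CPM with saline. It ran from 449 to 509 CPM with a median of 488 with atrasentan, overlapping both other groups. Atp6ap1 rose by 0.21 ± 0.08 with atrasentan against saline (adjusted p = 0.0381) and by 0.23 ± 0.08 against wild type (adjusted p = 0.0318), and the first of these was lost without saline library 2, 3, 4 or 5 or atrasentan library 1, 3, 4 or 7 (adjusted p of 0.057 to 0.0812). The second was lost without wild type library 1, 3, 4 or 5 or atrasentan library 1, 3, 4 or 7 (0.0505 to 0.0899). Atp6v0a2 (a2), a V0 isoform of the Golgi and endosomes, stood at 79.4, 69.5, 71.7, 88.6 and 67.1 CPM in wild type, at 89.0, 81.2, 88.6, 83.1 and 74.4 CPM with saline, and from 77.5 to 125 CPM (median 91.6) with atrasentan. It rose by 0.34 ± 0.11 with atrasentan against wild type (adjusted p = 0.0237), which was lost without wild type library 2, 3 or 5 (0.055 to 0.0675). The other subunits of this kind, Atp6v1d, Atp6v1e1, Atp6v1f, Atp6v1h, Atp6v0b and Atp6v0e, passed in no comparison and had means between 68.2 and 272 CPM. Of these, Atp6v1e1 passed as lower with atrasentan than with saline without saline library 2 or 4 (-0.37 and -0.38, adjusted p = 0.0402 and 0.034), and Atp6v1d as higher with atrasentan than in wild type without wild type library 2 (0.32, adjusted p = 0.0369). Atp6v1h passed as higher with saline than in wild type with DESeq2 (0.34, adjusted p = 0.0497). Of the isoforms from testis or brain, Atp6v1g2 and Atp6v0e2 had means of 6.02 to 7.41 and 28 to 34.8 CPM and also passed in none, though Atp6v0e2 passed as lower with atrasentan than with saline without saline library 2 (-0.41, adjusted p = 0.0426).

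Atp6v0c, the proteolipid that forms most of the proton-carrying ring, was lower with atrasentan than in both other groups. It stood at 4.28, 1.96, 5.22, 2.83 and 2.30 CPM in wild type and at 2, 2.63, 2.98, 2.29 and 5.20 CPM with saline, and ran from 0.517 to 1.44 CPM with a median of 0.968 with atrasentan. Each of the 7 atrasentan libraries lay below each of the other 10. Atp6v0c fell by 1.54 ± 0.30 against saline (adjusted p = 0.00132) and by 1.68 ± 0.30 against wild type (adjusted p = 0.00061), while saline and wild type differed by -0.14 ± 0.33 (adjusted p = 0.864). These values rest on 26 to 200 reads per library and are uncertain, since reads that align to several places were not assigned to genes and Atp6v0c has near-identical pseudogenes. The pseudogene Atp6v0c-ps2 held 275 to 1097 reads per library, at 12.1 ± 3.67 CPM in wild type, 17.8 ± 7.61 with saline and 17.8 ± 2.53 with atrasentan, and passed in no comparison. The share of reads with several alignments was 23.4% to 28.1% in wild type, 24.5% to 25.5% with saline and 23.9% to 31.8% with atrasentan. The part of such reads in the Atp6v0c values was not tested.

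The 12 intercalated cell genes were all estimated higher in saline-treated ob/ob mice than in wild type (median log2 fold change 1.94), and 3 passed, where 3.21% of all genes were called as higher. All 12 were estimated lower with atrasentan than with saline (median -1.5), and 5 passed, where 18.5% of all genes were called as lower. Against wild type the median with atrasentan was 0.35, and Kit alone passed, where 14.7% of all genes were called as higher.

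Among genes of type A cells, Slc4a1, the kidney form of which moves bicarbonate out of the basolateral side, stood at 6.31, 4.31, 3.60, 6.39 and 1.65 CPM in wild type and at 39.5, 8.69, 32.2, 7.34 and 17.9 CPM with saline. Atrasentan libraries ran from 1.48 to 15.0 CPM with a median of 3.62. All saline libraries were above all wild type libraries, libraries 2 and 4 by the least. Slc4a1 rose by 2.24 ± 0.63 in saline against wild type (adjusted p = 0.0488) and fell by 1.96 ± 0.56 with atrasentan against saline (adjusted p = 0.013), with 0.29 ± 0.57 between atrasentan and wild type (adjusted p = 0.742). Slc4a1 is also the anion exchanger of red cells. Of 9 red cell markers 6 passed the filter and 0 were called in saline against wild type, with summed levels of 68.5 to 383 CPM and 95.5 to 452 CPM. With atrasentan 4 rose and 0 fell against saline (261 to 925 CPM), opposite to Slc4a1. Their part in the Slc4a1 values was not tested. The rise of Slc4a1 was lost without any 1 wild type library, saline library 1, 3 or 5 or atrasentan library 2, 3, 4 or 5 (adjusted p of 0.0511 to 0.146), and the fall had an adjusted p of 0.239 without saline libraries 1 and 3 together. With limma-voom and the deposited log2 table the rise had an adjusted p of 0.0742 and 0.0529.

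Aqp6, a channel of intracellular vesicles in type A cells, stood at 2.99, 1.87, 2.66, 2.52 and 0.737 CPM in wild type and at 17.5, 3.86, 10.8, 3.20 and 8.99 CPM with saline, with no overlap. The atrasentan libraries ran from 0.64 to 6.88 CPM with a median of 2.72. The log2 fold changes of Aqp6 were 2.04 ± 0.64, -1.37 ± 0.56 and 0.67 ± 0.58 in saline against wild type, atrasentan against saline and atrasentan against wild type (adjusted p = 0.0694, 0.0671 and 0.416). The first passed without saline library 2 or 4 (adjusted p = 0.0498 and 0.0385), and the second without saline library 2 or 4 or atrasentan library 2 or 5 (adjusted p of 0.0371 to 0.0478). Dmrt2, a transcription factor of type A cells, stood at 0.443, 0.0603, 0.443, 0.669 and 0.0589 CPM in wild type and at 4.49, 1.01, 4, 1.13 and 2.34 CPM with saline, with no overlap either. It ran from 0.113 to 3.02 CPM (median 0.669) with atrasentan. Its log2 fold changes were 2.94 ± 0.89, -1.15 ± 0.73 and 1.79 ± 0.83 (adjusted p = 0.0608, 0.238 and 0.112), at 2 to 22 reads per wild type library. The first of these passed without saline library 2 or 4 (adjusted p = 0.0481 and 0.0439). Kit, a receptor tyrosine kinase found on type A cells and also on mast cells, stood at 8.15, 5.31, 7.02, 10.8 and 6.69 CPM in wild type and at 13.7, 11.2, 16.3, 9.43 and 12.6 CPM with saline. With atrasentan it ran from 6.80 to 16.3 CPM with a median of 10.6, and the 3 groups overlapped. Its log2 fold changes were 0.74 ± 0.23 in saline against wild type (adjusted p = 0.0658) and -0.16 ± 0.21 in atrasentan against saline (adjusted p = 0.577), and Kit rose by 0.58 ± 0.21 with atrasentan against wild type (adjusted p = 0.0484). The value in saline against wild type passed without wild type library 4, saline library 4 or atrasentan library 3 (adjusted p = 0.0461, 0.0383 and 0.0497). The call against wild type with atrasentan was lost without wild type library 1, 2, 3 or 5, saline library 1, 2 or 5 or atrasentan library 1, 2, 5, 6 or 7 (adjusted p of 0.0523 to 0.12). Of 8 mast cell markers 5 passed the filter, and 2 rose and 1 fell in the last comparison. Their summed level was 204 to 267 CPM in wild type, 264 to 699 with saline and 323 to 540 with atrasentan, mostly from Gata2 and Hdc, while the mast cell proteases Mcpt4, Cma1, Tpsb2 and Tpsab1 were each at 0 to 0.577 CPM. Their part in the Kit values was not tested.

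Of the genes of type B cells none passed in any comparison in the edgeR fit of all libraries. Slc26a4 (pendrin), the apical chloride-bicarbonate exchanger of these cells, stood at 10.3, 6.66, 11.1, 14.9 and 4.63 CPM in wild type and at 74.9, 17.6, 52.1, 12.5 and 37.8 CPM with saline. It ran from 2.22 to 56.9 CPM (median 7.50) with atrasentan. The values with saline library 4 and the highest wild type library overlapped. Its log2 fold changes were 2.03 ± 0.76, -1.13 ± 0.67 and 0.90 ± 0.70 in saline against wild type, atrasentan against saline and atrasentan against wild type (adjusted p = 0.121, 0.199 and 0.354). Slc4a9, a basolateral exchanger of type B cells, stood at 8.15, 12.1, 12.9, 13.5 and 7.28 CPM in wild type, at 40.5, 15.4, 42.6, 11.5 and 28.6 CPM with saline, and from 0.90 to 42.5 CPM (median 4.56) with atrasentan. Its log2 fold changes were 1.36 ± 0.79, -1.29 ± 0.71 and 0.07 ± 0.72 (adjusted p = 0.341, 0.168 and 0.954). Insrr, a receptor kinase that responds to alkaline fluid, stood at 2.77, 3.26, 4.39, 6.48 and 2.53 CPM in wild type, at 20.2, 4.67, 22.0, 4.33 and 14.2 CPM with saline, and from 0.934 to 15.7 CPM (median 1.08) with atrasentan. Its values were 1.75 ± 0.75, -1.64 ± 0.67 and 0.11 ± 0.68 (adjusted p = 0.177, 0.0657 and 0.92). In all 3 genes saline libraries 1, 3 and 5 were above every wild type library, and atrasentan library 5 was the highest of its group. This was not particular to type B genes. Among the 17 kidney-enriched pump isoforms and intercalated cell genes, that library was the highest of its group in 10. Without atrasentan library 5 alone, Slc26a4, Slc4a9 and Insrr passed as lower against saline, with log2 fold changes of -1.79, -2.19 and -2.54 (adjusted p = 0.0338, 0.013 and 0.00321). Insrr also passed without saline library 2 or 4 (-1.85 and -1.86, adjusted p = 0.0476 and 0.0485). With all libraries kept, Insrr passed as lower against saline with DESeq2, limma-voom and the deposited log2 table (adjusted p = 0.0478, 0.0167 and 0.018). Slc4a9 did so with limma-voom and the deposited log2 table (adjusted p = 0.0171 and 0.0267). With saline and wild type fitted alone, Slc26a4, Slc4a9 and Insrr passed as higher with saline (adjusted p = 0.0302, 0.0397 and 0.0456). Without atrasentan libraries 2 and 5, a setting chosen after seeing the data, all 3 passed as lower against saline, with log2 fold changes of -2.43, -2.59 and -2.71 (adjusted p = 0.00571, 0.00673 and 0.00397).

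Other genes serve both intercalated cell types or the collecting duct as a whole. Car2, the cytosolic carbonic anhydrase that supplies protons and bicarbonate, stood at 39.3, 78.9, 77.3, 98.3 and 69.1 CPM in wild type and at 472, 104, 397, 91.7 and 250 CPM with saline, and ran from 15.9 to 96.9 CPM (median 47.6) with atrasentan. Saline library 4 lay inside the wild type range, and 1 atrasentan library, library 6 at 96.9 CPM, was above the lowest saline value. Car2 rose by 1.86 ± 0.51 in saline against wild type (adjusted p = 0.0452) and fell by 2.39 ± 0.46 with atrasentan against saline (adjusted p = 0.00119). Between atrasentan and wild type its value was -0.53 ± 0.46 (adjusted p = 0.41). The rise of Car2 was lost without any 1 wild type library, saline library 1, 3 or 5 or atrasentan library 2 or 3 (adjusted p of 0.0517 to 0.134), and the fall was kept without any 1 library. With limma-voom and the deposited log2 table the rise had an adjusted p of 0.0767 and 0.0657. With the podocyte mean minus the proximal tubule mean as a covariate, the fall was lost (-0.51, adjusted p = 0.232). The part of other tubule cells in the Car2 values was not tested. The ammonia transporter Rhcg, on the apical and basolateral side, stood at 9.53, 11.2, 13, 14.1 and 7.37 CPM in wild type, at 67.6, 16.2, 55.1, 12.2 and 27.8 CPM with saline, and from 1.87 to 39.2 CPM (median 21.3) with atrasentan. Its log2 fold changes were 1.69 ± 0.64, -1.03 ± 0.57 and 0.66 ± 0.59 (adjusted p = 0.126, 0.171 and 0.425), and the groups overlapped. Its basolateral relative Rhbg stood at 0.975, 0.814, 1.07, 1.22 and 0.442 CPM in wild type, at 4.44, 0.727, 3.58, 1.16 and 2 CPM with saline, and from 0.20 to 1.69 CPM (median 0.544) with atrasentan. Rhbg fell by 1.85 ± 0.49 with atrasentan against saline (adjusted p = 0.00849), while its values against wild type were 1.39 ± 0.54 with saline and -0.46 ± 0.50 with atrasentan (adjusted p = 0.135 and 0.528). Its fall had an adjusted p of 0.217 without saline libraries 1 and 3 together. The gene model Gm38392 shares exons with Rhbg on the same strand, so the counts of Rhbg may be incomplete.

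Foxi1, the forkhead factor of the intercalated cell lineage, stood at 2.84, 1.87, 4.52, 6.14 and 0.943 CPM in wild type and at 25.5, 3.52, 20.5, 5.39 and 16.2 CPM with saline. Atrasentan libraries ran from 0.698 to 10.7 CPM with a median of 2.69. Saline libraries 2 and 4 lay inside the wild type range. Its log2 fold change was 2.12 ± 0.77 in saline against wild type (adjusted p = 0.11). Foxi1 fell by 1.82 ± 0.68 with atrasentan against saline (adjusted p = 0.0473), with 0.30 ± 0.70 between atrasentan and wild type (adjusted p = 0.778). That fall was lost without wild type library 1, 2, 3 or 4, saline library 1, 3 or 5 or atrasentan library 1, 2, 3, 4 or 7 (adjusted p of 0.05 to 0.124). Hepacam2, an immunoglobulin-family surface protein of intercalated cells, stood at 2.37, 1.03, 2.21, 2.56 and 1.06 CPM in wild type and at 14.9, 5.20, 12.3, 3.47 and 6.37 CPM with saline, with no overlap. It ran from 0.925 to 6.29 CPM with a median of 1.66 with atrasentan. Hepacam2 rose by 2.19 ± 0.53 in saline against wild type (adjusted p = 0.0287) and fell by 1.80 ± 0.47 with atrasentan against saline (adjusted p = 0.00782), and was at 0.39 ± 0.49 between atrasentan and wild type (adjusted p = 0.577). The rise was lost without wild type library 1, 2, 3 or 5 or saline library 1 or 3 (adjusted p of 0.0555 to 0.0901). The fall was kept without any 1 library, but had an adjusted p of 0.167 without saline libraries 1 and 3 together.

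**Figure D3:**
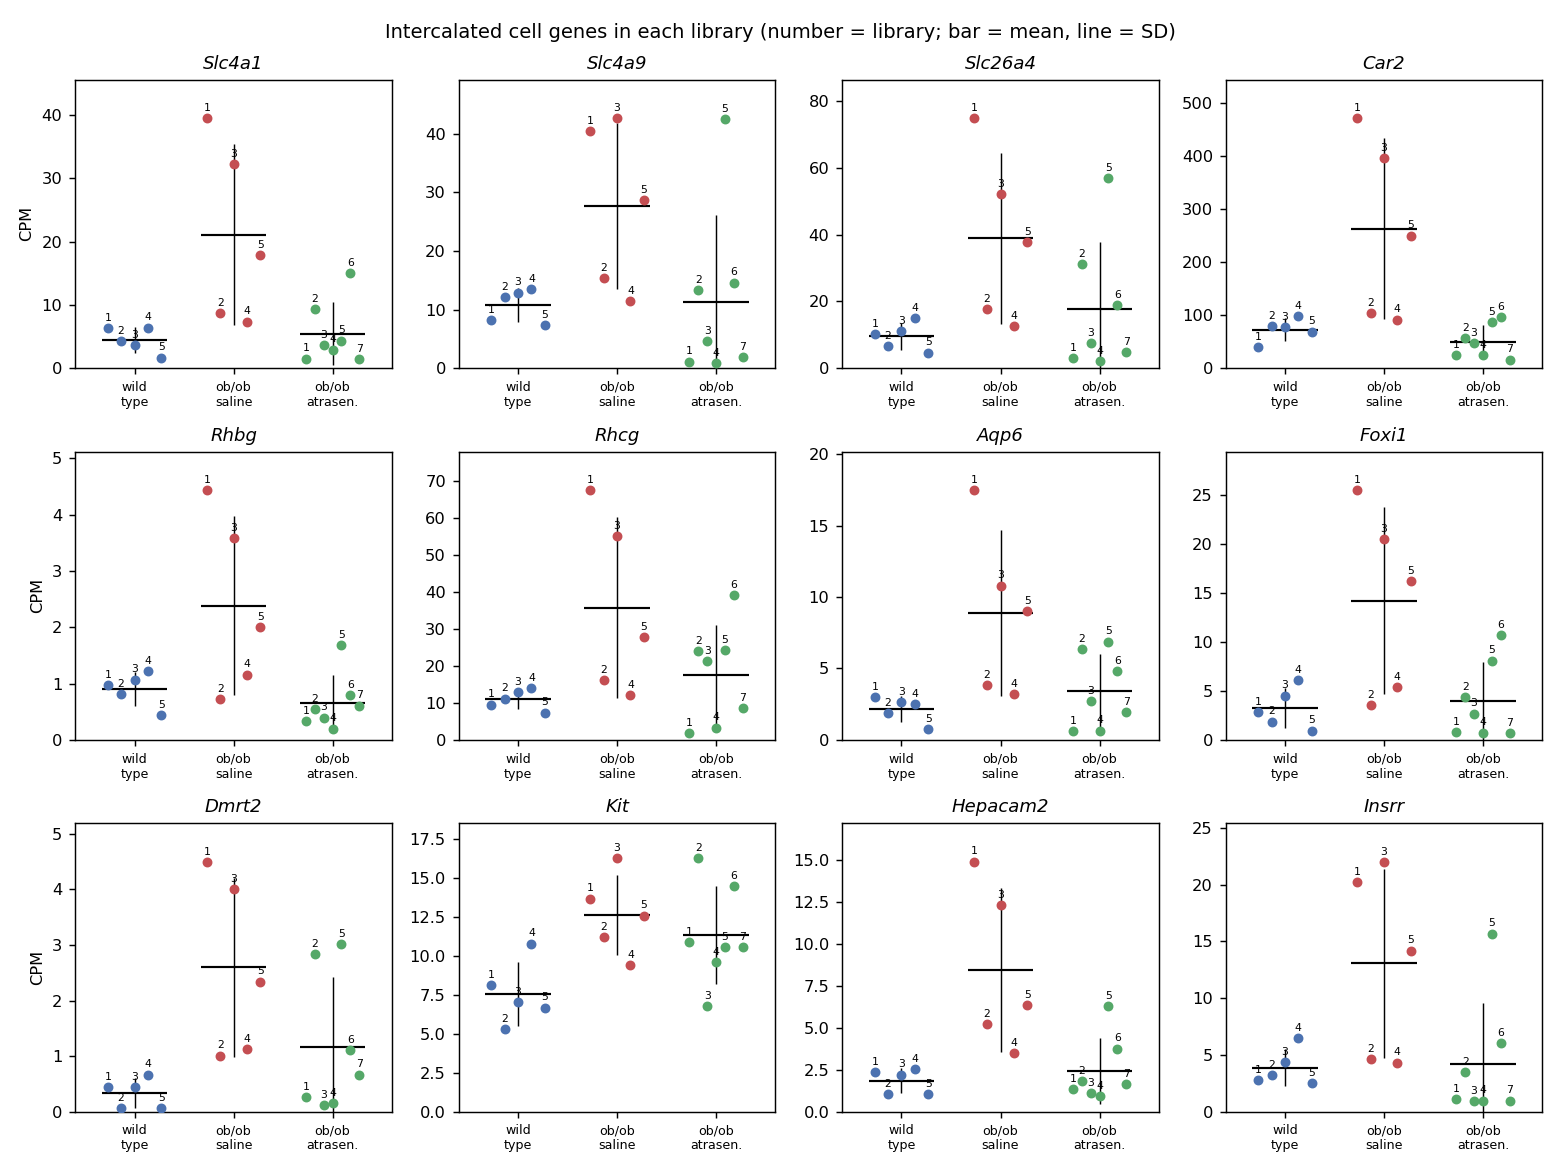
Level in CPM of the 12 intercalated cell genes in each library, with the group mean as a bar and the SD as a line. Saline libraries 1, 3 and 5 lie above saline libraries 2 and 4 in every panel. Atrasentan library 5 is at the top of its group for Slc26a4, Slc4a9, Insrr, Aqp6 and Dmrt2, among others, but not for Slc4a1.

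The kidney-enriched pump isoforms and the intercalated cell genes, 17 genes in all, varied together from library to library. Saline libraries 1, 3 and 5 were above saline libraries 2 and 4 in 17 of the 17, where 25.2% of all genes tested had that order. The same 3 libraries were above all wild type libraries in 17 of 17 (14.8% of all genes). All 5 saline libraries were above all wild type libraries in 6 of 17, where 3.46% of all genes were. Within the atrasentan group, libraries 1, 4 and 7 were below libraries 2, 5 and 6 in 15 of 17, the exceptions being Rhbg and Kit, where 7.34% of all genes had that order. These orders were noticed in the data and are descriptions of these libraries.

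**Figure D4:**
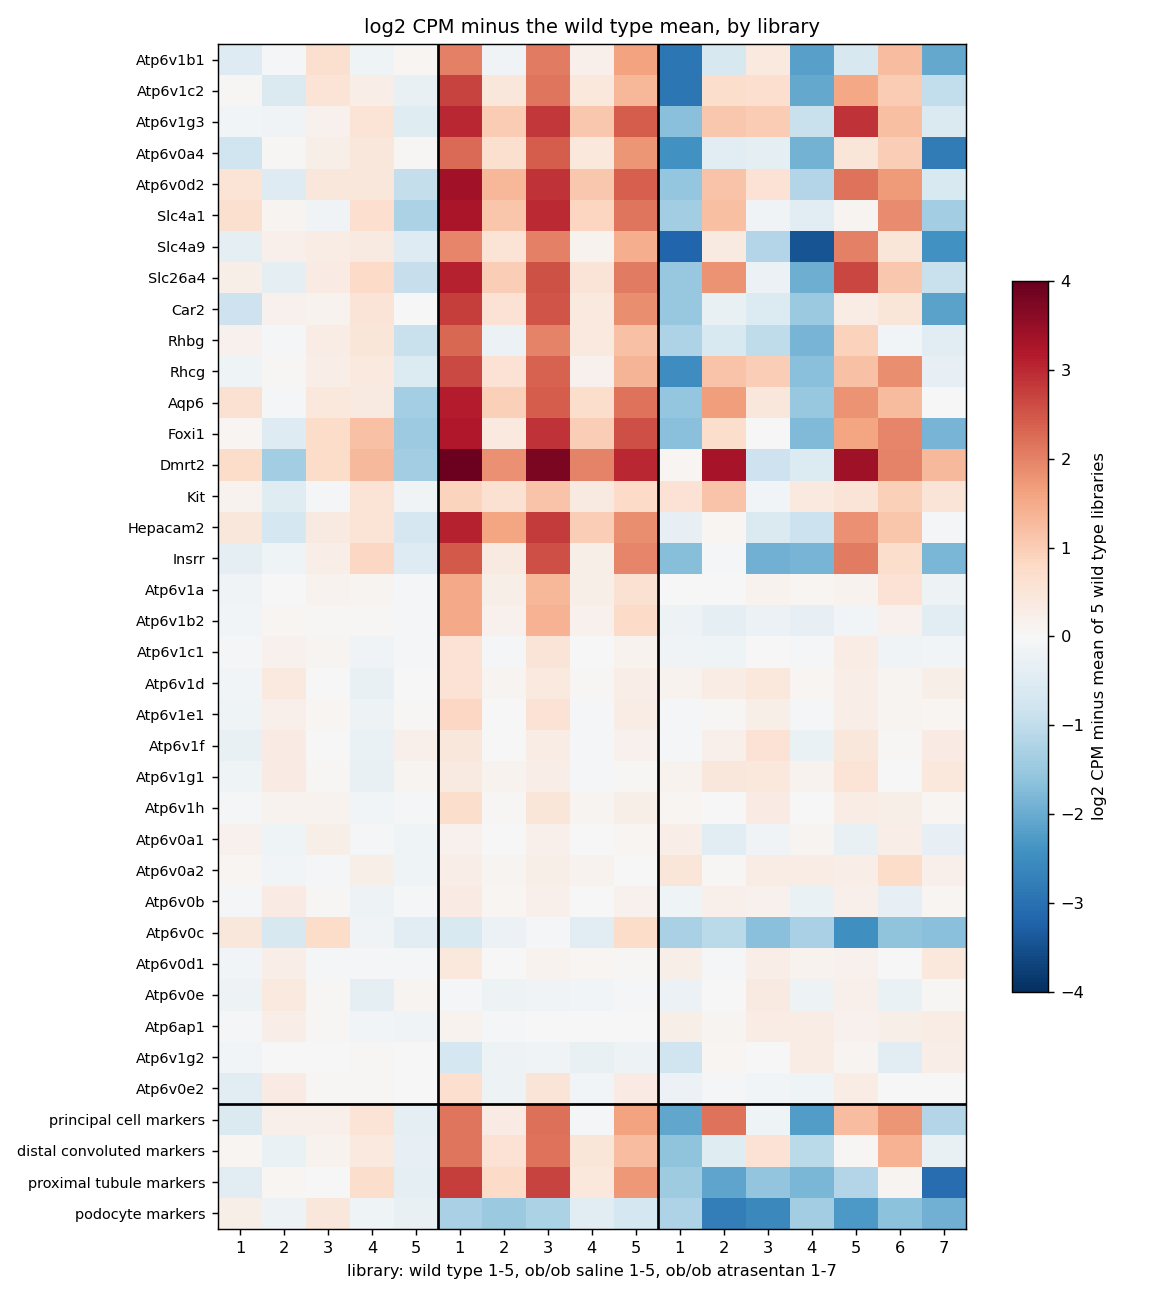
Each square is the log2 CPM of a gene (or the mean of a marker list, in the lowest 4 lines) in a library, minus the mean of the 5 wild type libraries. Red stands for higher and blue for lower values. The kidney-enriched isoforms and intercalated cell genes in the upper lines mostly share the pattern of the principal cell markers, with saline libraries 1, 3 and 5 high and atrasentan libraries 1, 4 and 7 low. The distal convoluted tubule markers share the saline part, but their mean log2 CPM was higher in atrasentan library 7 (4.35) than in library 2 (4.16).

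Markers of other tubule cells, neighbouring or more distant, varied with these genes in whole or in part. The mean log2 CPM of 9 principal cell markers was 4.5, 2.67, 4.54, 2.29 and 3.95 in saline libraries 1 to 5, and that of the 12 intercalated cell genes was 4.75, 2.80, 4.53, 2.67 and 3.89. In wild type the principal cell mean ran from 1.77 to 2.89 and the intercalated cell mean from 1.22 to 2.68, and with atrasentan they ran from 0.12 to 4.51 and from 0.60 to 3.56. None of the 9 tested of 10 principal cell markers was called in any comparison. For saline against wild type 4 had an unadjusted p under 0.05. The summed level of the list was 56.4 to 132 CPM in wild type, 96.8 to 394 with saline and 27.0 to 618 with atrasentan. Of 10 distal convoluted tubule markers 4 rose in saline against wild type and 4 fell with atrasentan against saline. Of all genes, 3.21% were called as higher in the first of these comparisons and 18.5% as lower in the second. Of 15 proximal tubule markers 5 rose and 15 fell in the same comparisons, with summed levels of 2008 to 4390 CPM in wild type, 3652 to 19933 with saline and 372 to 3363 with atrasentan. Of 10 loop of Henle markers 0 were called in saline against wild type (0 with an unadjusted p under 0.05, median 0.48, mean log2 CPM of 3.67 to 5.89 against 3.22 to 5.31), and 4 fell with atrasentan against saline (median -1.49). Of 15 podocyte markers 8 fell in saline against wild type and 7 with atrasentan against saline, where 1.91% and 18.5% of all genes were called as lower.

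The gap between the intercalated cell genes and other markers depended on the markers chosen. The intercalated cell mean minus the proximal tubule mean was -4.59 ± 0.42 in wild type and -4.56 ± 0.17 with saline (SD, n = 5 and 5), and it was -3.07 ± 1.13 with atrasentan (n = 7). Minus the principal cell mean it was -0.32 ± 0.47, 0.14 ± 0.18 and -0.31 ± 0.77, and minus the distal convoluted tubule mean -2.61 ± 0.28, -2.22 ± 0.22 and -2.46 ± 0.95. Minus the podocyte mean it was -6.41 ± 0.49, -3.69 ± 1.2 and -4.5 ± 1.63, a wider gap between saline and wild type than in the intercalated cell mean itself (3.73 ± 0.96 against 2.03 ± 0.56). For the kidney-enriched pump isoforms the difference from the principal cell mean was -0.25 ± 0.34, 0.18 ± 0.17 and -0.46 ± 0.82. These differences of means were not tested. With the mean of the principal cell and distal convoluted markers as a covariate in the edgeR fit, 0 of the 34 genes were called in saline against wild type, 4 in atrasentan against saline and 6 in atrasentan against wild type. In the second of these the genes still lower were Atp6v0a4, Atp6v0c, Atp6v1b2 and Car2. With the podocyte mean minus the proximal tubule mean as the covariate the counts were 0, 1 (Atp6v0c) and 7. The shares of all genes called in these 2 fits are not given here, so the counts cannot be set against them. In atrasentan against wild type Atp6v0a4 and Atp6v1b1 passed as lower with either covariate, at -0.70 and -0.78 with the first (adjusted p = 0.0364 and 0.0358). With the second they were at -1.19 and -1.21 (adjusted p = 0.00689 and 0.0338). Car2 also passed as lower in that comparison with the second covariate, at -1.06 (adjusted p = 0.000415). A covariate built from tubule or podocyte markers may carry the effect of the genotype or the treatment on those cells, so these fits change the question.

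**Figure D5:**
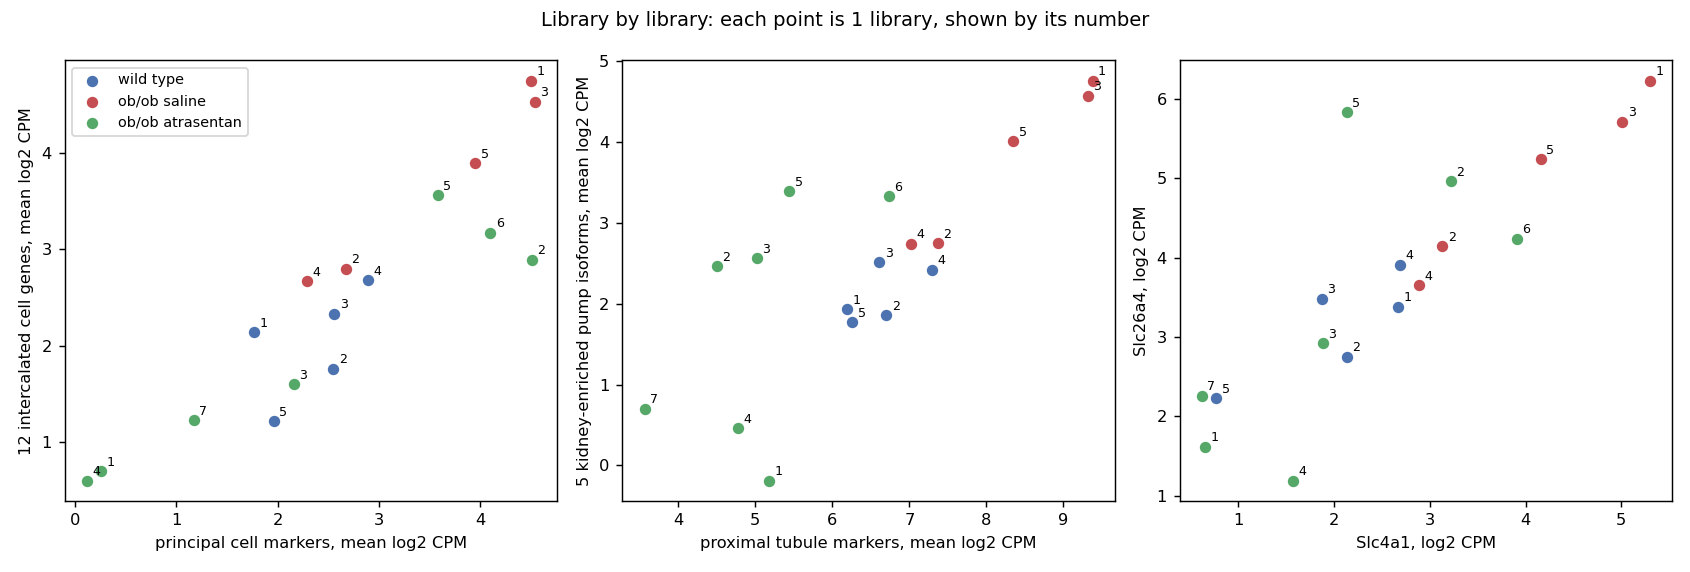
Each point is a library, coloured by group and numbered. The panels set the mean log2 CPM of the 12 intercalated cell genes against that of the principal cell markers, that of the 5 kidney-enriched pump isoforms against the proximal tubule markers, and Slc26a4 against Slc4a1. In the middle panel the atrasentan libraries lie to the left of the others, library 6 excepted, and atrasentan library 5 lies above the other points of like Slc4a1 level in the right panel.

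Atrasentan library 5 had the highest ratio of type B genes to Slc4a1, but not to every type A gene. The ratio of Slc26a4 to Slc4a1 in CPM was 1.55 to 3.09 in wild type and 1.62 to 2.11 with saline. In atrasentan library 5 it was 13.1, against 0.761 to 3.35 in the other 6 atrasentan libraries. That library held Slc26a4 at 56.9, Slc4a9 at 42.5, Insrr at 15.7 and Atp6v1g3 at 22.6 CPM, levels within the range of saline libraries 1, 3 and 5. Its Slc4a1 level was 4.34 CPM and its Atp6v1b1 level 4.87 CPM, within the wild type range or just below it. Atrasentan library 6 held the highest Slc4a1 and Atp6v1b1 levels of its group, 15.0 and 18.2 CPM, beside Slc26a4 at 18.8 CPM. The ratio of Slc4a9 to Slc4a1 was 9.80 in atrasentan library 5, 0.308 to 1.43 in the other 6, 1.29 to 4.41 in wild type and 1.03 to 1.77 with saline. With Aqp6 in place of Slc4a1 the contrast was smaller. Slc26a4 to Aqp6 was 8.27 in atrasentan library 5, 2.43 to 4.88 in the other 6, 3.44 to 6.28 in wild type and 3.91 to 4.82 with saline. Slc4a9 to Aqp6 was 6.18 in that library, below the highest wild type value of 9.88. Aqp6 and Dmrt2 were themselves highest of the atrasentan group in library 5, at 6.88 and 3.02 CPM. These ratios were picked after the values were seen, and no test was made of them.

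Other genes of intercalated cells, from a list of 12 of which 11 passed the filter, showed a mixed picture. In saline against wild type 0 were called, 6 had an unadjusted p under 0.05 and the median log2 fold change was 0.83. For atrasentan against saline 3 fell and 1 rose (median -1.07), a share called near the 33.8% of all genes. The membrane-bound carbonic anhydrase Car12 fell by 2.6 ± 0.44 (27.6 ± 18.3 CPM, SD, n = 7, against 168 ± 104, n = 5, adjusted p = 0.00048), the oxoglutarate receptor Oxgr1 by 1.78 ± 0.53 (adjusted p = 0.0162) and the exchanger Slc26a7 by 1.43 ± 0.39 (adjusted p = 0.00937), while Spink8 rose by 0.77 ± 0.24 (adjusted p = 0.0228). Slc26a7, a basolateral exchanger of type A cells of the medulla, did not follow Slc4a1. It was at 17.6 ± 8.39 CPM in wild type, 6.95 ± 3.53 with saline and 2.57 ± 1.25 with atrasentan, and fell by 2.77 ± 0.39 in atrasentan against wild type (adjusted p = 9.38e-05). For saline against wild type its value was -1.34 ± 0.42 (adjusted p = 0.0695).

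Of 13 partners of the pump, namely the a3 subunit gene Tcirg1, assembly factors and regulators, 0 were called in saline against wild type and 3 had an unadjusted p under 0.05 (median 0.18). In atrasentan against saline 2 rose and 2 fell (median -0.0078), a share called near the 33.8% of all genes. The genes lower were Dmxl2 and Rogdi, parts of the complex that joins V1 to V0. Dmxl2 fell by 0.69 ± 0.12 (11.8 ± 1.05 CPM, n = 7, against 19.0 ± 3.84, n = 5, adjusted p = 0.000739) and Rogdi by 0.99 ± 0.26 (adjusted p = 0.00771). The assembly factor Ccdc115 rose by 0.57 ± 0.13 (adjusted p = 0.0039) and Oxr1, of the TLDc family that takes V1 off V0, by 0.33 ± 0.10 (adjusted p = 0.0131). In atrasentan against wild type 3 rose and 2 fell, where 29.2% of all genes were called, among them Oxr1, which rose by 0.40 ± 0.10 (adjusted p = 0.00479), and Dmxl2, which fell by 0.39 ± 0.12 (adjusted p = 0.0241).

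The calls in saline against wild type depended on single libraries. No member was called without wild type library 1, 2, 3 or 5 or saline library 1 or 3, and 3 were called without wild type library 4, saline library 5 or atrasentan library 2. Without saline library 2 or 4 there were 9 or 10. For atrasentan against saline 8 to 12 members were called as lower or higher in the fits that left out a library, apart from 16, 15 and 19 without saline library 2, saline library 4 and atrasentan library 5. Without saline libraries 1 and 3 together, 0 and 3 members were called in these 2 comparisons. For these fits the share of all genes called is not given here, so the counts cannot be set against it.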

How the data were processed

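RNA was sequenced as poly(A) libraries with a TruSeq v2 kit, which does not mark strand, per the labels' protocols. The authors deposited a raw count table of reads per gene and a normalized table taken as log2 values from its range, with its transform not given. STAR, HTSeq, DESeq2, edgeR, limma and GRCm38 are named in the submitters' processing notes, and the strand setting and annotation release are not given there. The 5 summary lines that name no gene were left out. They hold reads outside genes (3.17% to 8.58%), ambiguous reads (2.93% to 3.37%) and reads with several alignments (23.4% to 31.8%). Counts were tested with edgeR 4.0.16 (R 4.3.3), quasi-likelihood, in 1 fit of all 17 libraries after filterByExpr (17766 genes), with TMM scaling (0.892 to 1.15), Benjamini-Hochberg adjustment over all genes, a threshold of 0.05 and a prior count of 2. Errors of fold changes are standard errors. The kidney isoform to partner ratios were compared by exact permutation tests. Nothing in the labels says more than that each library is a separate mouse sample, so p-values measure the spread between these samples. No pair of libraries within a group agreed within sampling noise (chi-square per degree of freedom of 26.5 to 275.2 in 41 pairs).

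The genes given in full are the 5 kidney-enriched isoforms, their 5 widely expressed partners, the 12 intercalated cell genes and every other subunit called in a comparison. Other lists are given by counts and their median, with the called gene of lowest p and the uncalled gene of highest mean CPM as examples, and further called genes chosen after their values were seen. Results that need an item withheld for evaluation are not reported here. The genes and lists were chosen with earlier results of these data known. Alternatives were other scalings, no filter, DESeq2 1.42.0, limma-voom 3.58.1, each pair of groups alone, the deposited log2 table, 2 covariates from marker genes and libraries left out. The test script was tested on simulated data. Symbols came from the reference table for 53274 of 53379 gene IDs.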

Additional observations from a re-analysis of the deposited data

Results flagged for a closer look

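In 3 of 102 sets of a gene and a group, 1 library lay far from the rest by Dixon's test, where chance gives about 1 in 20. Wild type library 2 was the highest for Atp6v0d1, at a log2 CPM of 6.99 against 6.62 to 6.67 in the other 4 (gap over range 0.86). Atrasentan library 5 was the highest for Atp6v1c1, at 7.09 against 6.63 to 6.78 in the other 6 (gap over range 0.67). Saline library 1 was the lowest for Atp6v1g2, at 2.20 against 2.61 to 2.76 in the other 4 (gap over range 0.73). None of the 3 genes was called in any comparison (edgeR).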

How the results depend on the processing

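In saline against wild type the 6 calls became 12 with DESeq2, 2 with limma-voom, 16 with these groups fitted alone, and 0 with either marker covariate or without saline libraries 1 and 3, and ran from 0 to 10 with 1 library left out. In atrasentan against saline the 12 calls became 1 with the glomerular share as covariate (podocyte minus proximal tubule markers), 4 with the distal nephron covariate, 3 without saline libraries 1 and 3 and 19 without atrasentan libraries 2 and 5, and ran from 8 to 19 with 1 library left out. In atrasentan against wild type the 4 calls became 2 with upper-quartile scaling, 2 without the filter, 1 with these groups alone and 7 with the glomerular share, and ran from 1 to 4. The share of all genes called in each of these settings is not given here. Whether such changes in counts are particular to these genes cannot be told from them. The 0 isoform ratios that passed ran from 0 to 5. With the glomerular share as covariate some log2 fold changes changed sign, and none of these was called. In saline against wild type they were Atp6v0d2 (-0.056, adjusted p = 0.996), Atp6v1a (-0.016, 0.996), Car2 (-0.55, 0.749) and Slc4a1 (-0.24, 0.971). In atrasentan against saline they were Atp6v0d2 (0.11, adjusted p = 0.927), Atp6v1a (0.00028, 0.999) and Foxi1 (0.12, 0.926). These values show a loss of the call and no reversal. The cause was not tested. Of 22 called values, 13 lost the call with some library left out and 20 in some other setting. Atp6v0c alone kept both its calls in every setting. No paired analysis was possible because the labels number no replicates across groups. Low counts limit Dmrt2, Rhbg and Atp6v0c most.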

Other observations

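Lysosomal enzymes and membrane proteins, which work in the compartment that the widely expressed pump acidifies, were examined as a list of 16 genes. In saline against wild type 3 rose and 0 fell (median log2 fold change 0.21, with 5.12% of all genes called), among them the protease Ctsb, which rose by 0.52 ± 0.12 (1503 against 1050 CPM, edgeR adjusted p = 0.025). In atrasentan against wild type 8 rose and 0 fell (median 0.33, with 29.2% of all genes called), and Ctsb rose by 0.74 ± 0.11 (1752 against 1050 CPM, adjusted p = 0.000166). In atrasentan against saline 4 rose and 2 fell (median -0.053), a share called near the 33.8% of all genes, and the glucuronidase Gusb rose by 0.44 ± 0.10 (adjusted p = 0.00223). Macrophages hold many lysosomes, and of 12 macrophage markers 0, 7 and 9 rose in the same 3 comparisons. Their part in the lysosomal values was not tested.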
